A study of Macaca fascicularis with 10 samples.

Results

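Haploid monkey embryonic stem cells that carry 2 different codes were compared on 4 of the 10 arrays of a study of cynomolgus monkey (Macaca fascicularis) cells. The 4 arrays are titled with 1 line name, MPH1, but their descriptions carry 2 codes, M1 (passages 8 and 11) and M2 (passages 7 and 9). The labels do not explain the codes, so whether they mark separate derivations, subclones or cultures is unknown. All 4 hold RNA of haploid cells derived from parthenogenetic blastocysts, that is from embryos without a sperm genome, grown on feeder cells in medium with Y27635 and Thiazovivin. The labels repeat this growth protocol, worded for the haploid cells, for every sample. Another 4 stem cell arrays were used for context, namely 1 array of the haploid parthenogenetic line MPH2 at passage 4 and 3 arrays of diploid stem cells from blastocysts made by ICSI, the injection of a sperm into an egg (MES1 at passage 12, MES2 and MES3 at passage 4). The other 2 arrays hold diploid female fibroblasts (MF, passages 14 and 15). Genes were chosen where the 2 arrays of one code both lay above the 2 arrays of the other and where both arrays of the higher code lay above their own median signal. Of 10315 genes tested, 2305 met this rule with M1 higher and 1849 with M1 lower.

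Haploid embryonic stem cells carry 1 set of chromosomes, which lets a recessive mutation show at once, and they tend to become diploid in culture. Primate embryonic stem cells are primed: NODAL, activin and FGF signals hold them undifferentiated. More NODAL and WNT signal takes them towards the primitive streak and endoderm, and BMP signal, whose direct targets are the ID genes, takes them towards amnion or trophoblast. A culture holds some cells that have started on such a path, and in RNA of a whole culture more such cells and more RNA per cell cannot be told apart.

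The arrays of a code were not closer to each other than to arrays of the other code in every case. Over the 27533 probe sets tested, log2 signal correlated at r = 0.906 between the M1 arrays and 0.950 between the M2 arrays. M1 at passage 8 correlated at 0.944 and 0.931 with M2 at passages 7 and 9, above its value with the other M1 array, and M1 at passage 11 correlated at 0.902 and 0.914 with them. The M1 array at passage 11 therefore stood apart from the other 3, and results that rest on it are given with and without it. Probe sets are not independent replicates, so these values describe the arrays.

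**Figure D1:**
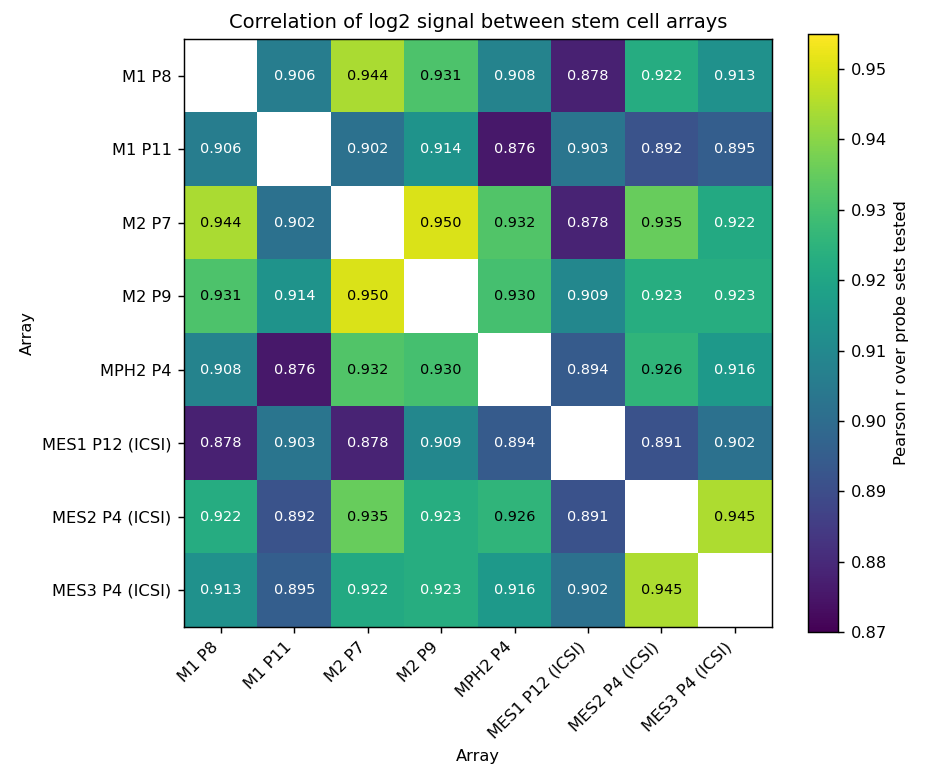
Pearson correlation of log2 signal over the probe sets tested, for each pair of the 8 stem cell arrays (array names on both axes, colour from 0.87 to 0.955). The 2 M2 arrays share the highest value of the 4 MPH1 arrays, 0.950, and M1 at passage 11 has values of 0.902 to 0.914 with the other 3.

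Some technical values moved with the code. The geometric mean signal of 9 hybridisation spike-in probe sets, RNA added in known amounts, was 5886 and 11049 on the M1 arrays, against 4498 and 5381 on the M2 arrays. The ratio of 3′ to 5′ signal of actin, a measure of RNA integrity and labelling that is higher where 5′ ends are lost, was 4.71 and 4.96 in M1 and 3.08 and 3.61 in M2. For GAPDH the ratio was 2.45 and 2.04 in M1 and 1.88 and 1.97 in M2. Array medians were 96.1 and 132.7 in M1 and 77.9 and 95.8 in M2. The codes overlapped in none of these measures. The part of these values in the results below was not tested.

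The cells of both codes had the profile of stem cells. Over 13 core pluripotency markers the summed signal was 99570 and 81288 in M1 and 98247 and 92484 in M2, against 4438 and 4636 in the fibroblasts. Over 26 fibroblast and feeder markers it was 104150 and 171106 in M1 and 114978 and 185904 in M2, so the codes overlapped and the later passage of each was higher. Both fibroblast arrays reached 313862 or more. The ICSI array MES1 was higher still, at 336886, so this sum did not separate every stem cell array from the fibroblasts. MPH2, MES2 and MES3 read 124239 to 182948. The 14 epidermal markers summed to 5712 and 4710 in M1 and 5403 and 5148 in M2. On the arrays labelled fibroblast they summed to 358778 and 359777, so those arrays also carried epidermal markers at high signal. The labels do not say that the arrays of a code came from separate cultures, so p-values measure the spread between these arrays, which may be technical.

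With 2 arrays a code, 1 probe set passed an adjusted p of 0.05 by limma, which is 0.00363% of 27533, and 2115 (7.68%) had an unadjusted p under 0.05. The probe set names KYNU, kynureninase, an enzyme that breaks down tryptophan by way of kynurenine. Its signal was 2440 and 2560 in M1, against 179 and 266 in M2. Both M1 arrays lay far above both M2 arrays and close to each other. KYNU rose by 3.52 ± 0.25 (log2, SE), 11.4-fold, with a limma adjusted p of 0.035, and the adjusted p ran from 2.22e-08 to 0.444 over the alternatives. Leaving out either M1 array ended the call, at adjusted p of 0.054 without passage 8 and 0.056 without passage 11, with differences of 3.55 and 3.48. The call was also lost with quantile normalization (0.063), all 10 arrays in the fit (0.383) and no variance trend (0.444). A further KYNU probe set differed in the same direction by 0.81. In the other stem cells KYNU read 903 in MPH2 and 3225, 14194 and 1441 in the ICSI lines.

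Next in order of p came NUP133 and ACTC1, each at a limma adjusted p of 0.052. NUP133, a nuclear pore protein, had signals of 1795 and 1668 in M1 and 7331 and 10203 in M2, a difference of -2.32 ± 0.21 (log2, SE). ACTC1, cardiac alpha actin, had signals of 2433 and 2552 in M1 and 9198 and 9478 in M2, a difference of -1.91 ± 0.16. For both genes M2 was the highest of the stem cells. MPH2 and the 3 ICSI lines read 2193 to 5705 for NUP133 and 2779 to 4172 for ACTC1. No other gene is described below as having passed the test, and the words higher and lower give the order of the signals.

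The rule itself is loose. Genes higher in M1 made up 22.3% of those tested and genes lower in M1 17.9%. Their median difference was 0.45 log2 units for those higher and 0.39 for those lower, and 447 and 438 of them had an unadjusted p under 0.05. The 4 arrays leave a gap between the codes, taken from the lower array of the higher code to the higher array of the lower code with signals under the array median raised to it. A gap of at least 1 log2 unit was left by 36 genes higher in M1 (0.349%) and 23 lower in M1 (0.223%). Just inside the rule lay KIF20B, a mitotic kinesin, at 773.341 and 731.913 in M1 and 773.343 and 831.88 in M2. Just outside lay PLCB2, a phospholipase C, at 332 and 509 in M1 and 255 and 332 in M2, where the closest arrays had equal signals.

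Among the 14 genes with the largest gap higher in M1 were regulators of the primitive streak and anterior endoderm. CER1, a secreted antagonist of NODAL and BMP made by anterior endoderm, had signals of 1573 and 6310 in M1 and 268 and 95.8 in M2. The 4 arrays did not overlap, M1 at passage 11 was the highest, and the difference was 4.30 ± 0.68 (log2, SE; limma adjusted p 0.309). GSC, the homeobox gene of the organizer, had 1102 and 2831 in M1 against 262 and 110 in M2, a difference of 3.38 ± 0.53 (limma adjusted p 0.309). LGR5, a receptor for R-spondin that enhances WNT signalling, had 1046 and 2321 in M1 against 317 and 76.8 in M2, a difference of 3.32 ± 0.65 (limma adjusted p 0.346), and its other probe set differed by 1.00. In each of the 3 genes the M2 array at passage 9 was the lowest of the 4 and the M1 array at passage 11 the highest. Without M1 at passage 11 the differences were 3.30 for CER1, 2.70 for GSC and 2.75 for LGR5. DACT2, a regulator of NODAL and WNT signalling, had 272 and 451 in M1 against 50.8 and 69.7 in M2, both at or under the array median, so that it was at least 4.06-fold higher in M1.

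KIT, the receptor for stem cell factor, had signals of 2581 and 3478 in M1 and 825 and 907 in M2, a difference of 1.79 ± 0.21 (limma adjusted p 0.195). Each code held a narrow range for it. COLEC12, a scavenger receptor of the collectin family, had 659 and 636 in M1 and 169 and 88.1 in M2. RASGRP1, an activator of RAS, had 285 and 389 in M1 and 86.2 and 41.9 in M2. ATP10A, a phospholipid flippase that is imprinted in some tissues, had 284 and 273 in M1 against 74.2 and 23.8 in M2, at least 3.23-fold higher in M1. TMEM150C, ZNF280A, CLEC3A and the unnamed loci LOC706293 and LOC713150 completed the 14. Of these 5, LOC713150 had the brightest M1 arrays, 2458 and 2331, against 577 and 183 in M2.

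**Figure D2:**
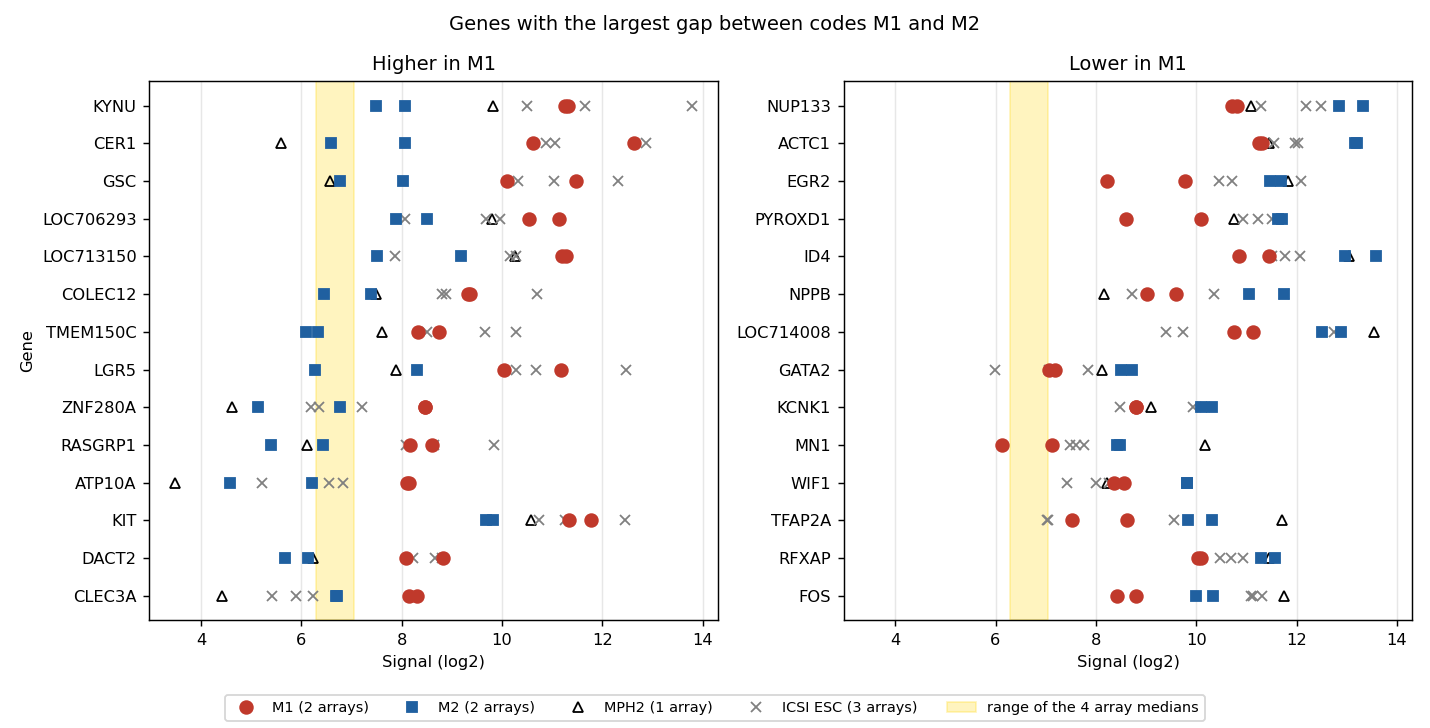
Log2 signal of the 14 genes with the largest gap in each direction (left, higher in M1; right, lower in M1), with 1 mark for each array. KYNU leads the left panel, with M1 at 2440 and 2560 against M2 at 179 and 266, and NUP133 the right, with M1 at 1795 and 1668 against M2 at 7331 and 10203; the band spans the medians of the 4 arrays, 77.9 to 132.7.

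The 14 genes with the largest gap lower in M1 held a different set of regulators. ID4, an inhibitor of basic helix-loop-helix factors and a target of BMP signalling, had signals of 2796 and 1836 in M1 and 7996 and 12243 in M2. The difference was -2.13 ± 0.27 (log2, SE; limma adjusted p 0.225), and all 3 ID4 probe sets tested had this direction. EGR2, a zinc finger factor induced early by growth factors, had 300 and 871 in M1 against 3311 and 2832 in M2, a difference of -2.58 ± 0.44 (limma adjusted p 0.319). FOS, a subunit of the AP-1 factor, had 444 and 344 in M1 and 1016 and 1282 in M2, a difference of -1.55 ± 0.25. For FOS the other stem cell arrays were all above both codes, at 2194 to 3448, so M1 was the lowest of the stem cells.

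TFAP2A, a factor of surface ectoderm, amnion and trophoblast, had signals of 183 and 394 in M1 and 919 and 1279 in M2. GATA2, which acts in trophoblast and blood, had 134 and 145 in M1 and 361 and 420 in M2. WIF1, a secreted inhibitor of WNT, had 329 and 380 in M1 and 902 and 901 in M2. Both codes were above the other 4 stem cell arrays for WIF1, which read 172 to 305 there. NPPB, the precursor of brain natriuretic peptide, had 773 and 520 in M1 against 2132 and 3440 in M2. PYROXD1, KCNK1, MN1, RFXAP and the unnamed locus LOC714008 made up the rest.

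The endoderm list showed the largest median shift of the 35 lists made for this comparison. Of 22 genes, 19 were named on the array and 15 passed the filter on dim signals, 1 of them only through the higher code. Of the 15, 12 were without overlap higher in M1 and none lower, against 22.3% and 17.9% of all genes tested. By limma 9 of the 15 had an unadjusted p under 0.05, beside 886 of all 10315 genes. The same 4 arrays gave both counts, so the second is no separate support. The median difference of the 15 was 1.63 log2 units, beside 0.035 for all genes. It was 1.33 with dim signals raised to the array median, and also 1.33 over the 19 without the filter. No member passed the limma test after adjustment, with adjusted p from 0.309 to 0.678 over the 12. Without M1 at passage 11 the median was 1.23, with 14 higher and 1 lower, where a single M1 array makes no overlap easier and the same count over all genes was 4286 higher and 3123 lower. Centring each array on its median lowers every difference by the same amount. It put the median of all probe sets at -0.35, against 0.04 as deposited. Of all genes 6.11% were then higher in M1 without overlap and 33.7% lower. The endoderm median was then 1.24, with 10 higher in M1 and 1 lower.

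The 12 were the secreted or surface proteins CER1, LGR5, CXCR4 and APOA1 and the transcription factors SOX17, GATA6, FOXA2, EOMES, GATA4, PRDM1, FOXA1 and HHEX. SOX17, which specifies endoderm, had signals of 524 and 1724 in M1 and 364 and 58.4 in M2, a difference of 2.70 ± 0.85. GATA6, a factor of endoderm, had 1021 and 4012 in M1 and 775 and 244 in M2. In both genes M1 at passage 8 was much closer to M2 at passage 7 than to M1 at passage 11. Without M1 at passage 11 the differences were 1.85 for SOX17 and 1.23 for GATA6. M2 at passage 9 was the lowest array for both, and for SOX17 its 58.4 lay under that array's median of 95.8. CXCR4, the chemokine receptor used to sort definitive endoderm, had 784 and 2597 in M1 and 335 and 171 in M2. FOXA2, a pioneer factor of endoderm and organizer, had 407 and 1008 in M1 against 240 and 125 in M2. EOMES, a T-box factor of the streak, had 1072 and 4709 in M1 and 849 and 486 in M2. PRDM1 rested on 1 array: it had 181 and 952 in M1 and 165 and 164 in M2.

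Not every endoderm gene took this form. APOA1, an apolipoprotein, was higher in M1 at passage 8 than at passage 11 (1109 and 695, against 283 and 457 in M2). HHEX was bright on all 4 arrays, at 20931 and 20043 in M1 and 16394 and 17486 in M2, and its difference of 0.27 turned to -0.11 with arrays centred on their medians. GATA4 was dim, at 139 and 219 in M1 against 51.9 and 61.6 in M2, at least 2.02-fold higher, and a second probe set differed by -0.52. AFP, the fetal liver protein, overlapped at 751 and 963 in M1 and 935 and 809 in M2, as did APOB and CDX2. An array of another line is said to lie with a code where it lies at or beyond that code's array nearest to the other code. MPH2 lay with M2 for 10 of the 12 and with M1 for 1, and all 3 ICSI lines lay with M1 for 9. Over all 2305 genes higher in M1, MPH2 lay with M2 for 57.6% and all 3 ICSI lines with M1 for 14.3%.

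**Figure D3:**
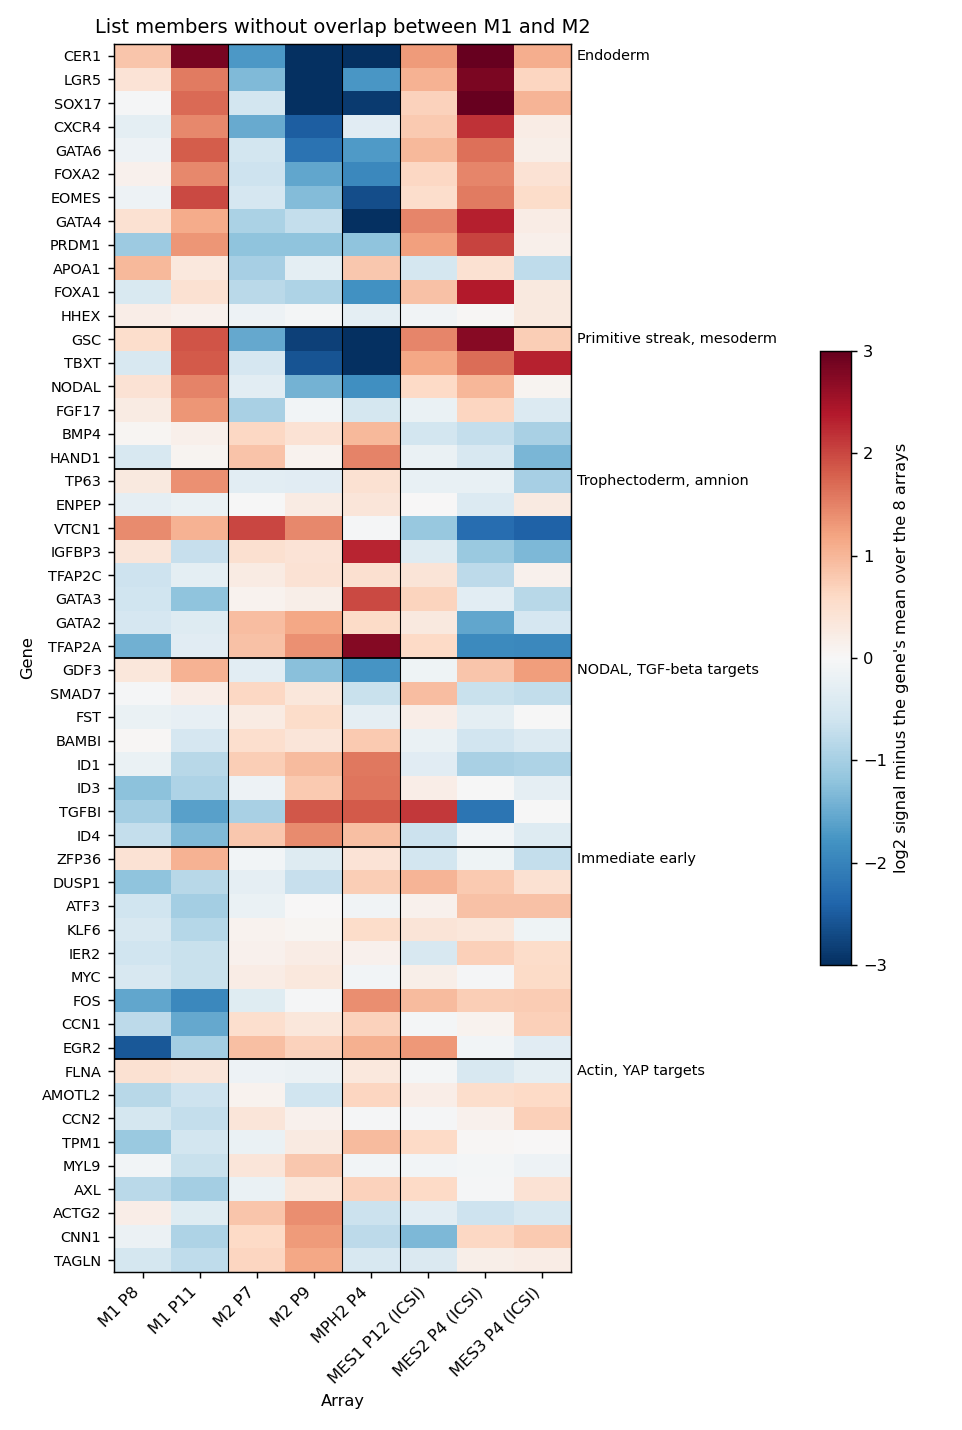
Log2 signal minus the gene's own mean over the 8 stem cell arrays, for members of 6 lists that did not overlap between M1 and M2 (rows, grouped by list, a gene shown once; columns, arrays; colours end at 3 log2 units either way). In the endoderm block M1 at passage 11 and the ICSI line MES2 are the most red and M2 at passage 9 and MPH2 the most blue, as for CER1 at 6310, 7475, 95.8 and 48.0.

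Genes of the primitive streak and mesoderm were mixed. Of 24, 20 were named on the array and 15 tested. Without overlap 5 (33.3%) lay higher in M1 and 2 (13.3%) lower, beside 22.3% and 17.9% of all genes. The median difference was 0.35, which was 0.18 without M1 at passage 11 and -0.04 with arrays centred. Besides GSC and EOMES the higher ones were NODAL, TBXT and FGF17, of which FGF17 passed the filter only through M1. NODAL, the TGF-beta family ligand that starts the streak, had signals of 1107 and 2316 in M1 and 667 and 307 in M2, a difference of 1.82 ± 0.45, although its other probe set differed by -0.02. TBXT, brachyury, had 116 and 584 in M1 and 115 and 27.1 in M2, so M1 at passage 8 and M2 at passage 7 were almost equal. BMP4, the ligand that drives mesoderm and amnion, was among the lower genes, at 593 and 637 in M1 and 881 and 775 in M2. BMP2, outside this list, went the other way and was higher in M1 by 1.73, with a gap of 1.17 (limma adjusted p 0.346). The summed signal of the 20 genes was 5955 and 15332 in M1 and 5714 and 3698 in M2.

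Targets of NODAL and TGF-beta family signals lay on both sides. Of 20 genes, 12 were named and 11 tested, and 10 of these did not overlap. Of the 11, 3 (27.3%) were higher in M1 and 7 (63.6%) lower, beside 22.3% and 17.9% of all genes. The median was -0.61, and -0.59 without M1 at passage 11. The 3 higher ones were the NODAL pathway genes CER1, NODAL and GDF3. GDF3, a ligand that acts with NODAL, had signals of 468 and 767 in M1 against 295 and 155 in M2, a difference of 1.48 ± 0.39. The 7 lower ones were ID1, ID3, ID4, BAMBI, SMAD7, FST and TGFBI. ID1 had signals of 4308 and 2800 in M1 and 8250 and 9612 in M2, a difference of -1.36 ± 0.23 (limma adjusted p 0.319). ID3 had 1800 and 2227 in M1 and 3771 and 7177 in M2, while its second probe set differed by 0.09. For ID1 the highest stem cell array was MPH2, at 14854, and the 3 ICSI lines read 2531 to 3889, within or under the range of M1 and well under M2. BAMBI, a decoy receptor induced by BMP, had 2611 and 1794 in M1 against 3628 and 3263 in M2. TGFBI, an extracellular protein induced by TGF-beta, rested on 1 array, with 675 and 445 in M1 and 696 and 5024 in M2.

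Markers of trophectoderm and amnion lay mostly on the lower side in M1. Of 23 genes, 19 were named and 17 tested, 14 with a negative difference. Without overlap 8 (47.1%) were lower in M1 and 1 (5.88%) higher, beside 17.9% and 22.3% of all genes, and the median was -0.45. GATA3, a factor of trophoblast and amnion, had signals of 252 and 167 in M1 and 416 and 434 in M2, a difference of -1.05 ± 0.31. TFAP2C, which acts in trophoblast and germ cells, had 609 and 766 in M1 and 1114 and 1259 in M2. VTCN1, a marker of amnion, IGFBP3, HAND1 and ENPEP were lower by 0.35 to 0.67, and TP63, the 1 higher gene, had 116 and 242 in M1 and 75.6 and 74.0 in M2 and passed the filter only through M1. The summed signal was 7356 and 6221 in M1, 10237 and 9172 in M2 and 17328 in MPH2. MPH2 lay with M2 for 6 of the 8, among them TFAP2A at 3367 and GATA3 at 1519. Over all 1849 genes lower in M1, MPH2 lay with M2 for 49.0%. Without M1 at passage 11 the counts were 9 lower and 5 higher, beside 30.3% and 41.6% of all genes, and the median was -0.18.

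Growth factor response genes lay mostly on the lower side in M1. Of 15 immediate early genes tested, 11 had a negative difference. Without overlap 8 (53.3%) were lower in M1 and 1 (6.67%) was higher, beside 17.9% and 22.3% of all genes, and the median was -0.54. CCN1, a matricellular protein that is both an immediate early gene and a target of the coactivator YAP, had signals of 6998 and 4145 in M1 and 17076 and 15096 in M2, a difference of -1.58 ± 0.25 (limma adjusted p 0.309). MYC, the growth regulator, had 3715 and 3231 in M1 and 5983 and 6453 in M2. IER2, an early response gene, had 4393 and 4153 in M1 and 7190.5 and 7749 in M2. KLF6, ATF3 and DUSP1 were lower by 0.54 to 0.76, with second probe sets of ATF3 at 0.59 and of KLF6 at up to 0.20. ZFP36, the 1 higher gene, differed by 0.97. JUND and NR4A2 overlapped, with differences of 1.41 and 1.28, which were 0.42 and -0.75 without M1 at passage 11. For 7 of the 8 lower genes MPH2 lay with M2, beside 49.0% of all 1849 genes lower in M1. Without M1 at passage 11, 11 were lower and 2 higher, beside 30.3% and 41.6% of all genes, and the median was -0.75.

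The list of FGF and ERK genes held ligands, a receptor and targets as well as feedback inhibitors. Of 13 genes, 4 (30.8%) were lower in M1 without overlap and none higher, beside 17.9% and 22.3% of all genes, with a median of -0.19. The ligands FGF4 and FGF17, placed in other lists, were higher in M1 without overlap, by 1.01 and 1.32. The 3 Sprouty genes, which dampen FGF signalling, were among the 4, while the inhibitors DUSP4, with a difference of 0.40, and SPRED2, with 0.02, overlapped. SPRY2 had signals of 4024 and 3980.1 in M1 and 6859 and 7054 in M2, a difference of -0.80 ± 0.16, and each code kept a narrow range. SPRY1 had 677 and 751 in M1 and 1410 and 1181 in M2, and SPRY4 had 537 and 614 in M1 and 912 and 1070 in M2. PHLDA1 had 631 and 710 in M1 and 1168 and 4365 in M2, with a second probe set at 0.96.

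Genes of the actin cytoskeleton and targets of YAP were also mostly lower in M1. Of 21, 18 were named and 16 tested, 12 with a negative difference. Without overlap 9 (56.25%) were lower in M1 and 1 (6.25%) higher, beside 17.9% and 22.3% of all genes. The median was -0.69, or -0.67 without M1 at passage 11. TAGLN, transgelin, an actin binding protein of smooth muscle, had signals of 3965 and 3380 in M1 and 8991 and 12815 in M2, a difference of -1.55 ± 0.21 (limma adjusted p 0.234), with both probe sets in this direction. CNN1, calponin, had 504 and 302 in M1 and 863 and 1382 in M2. CCN2, connective tissue growth factor, a YAP target, had 14598 and 12790 in M1 and 26875 and 22847 in M2. ACTG2, a smooth muscle actin, had 9266 and 6255 in M1 and 14384 and 21249 in M2, above the 5124 to 6467 of the other stem cells. MYL9, TPM1, AXL and AMOTL2 were lower by 0.47 to 0.98, with another AXL probe set at 1.11. FLNA, filamin A, the gene that lay higher, had 1935 and 1807 in M1 and 1273 and 1242 in M2. Fibroblasts and feeder cells express this list too. TAGLN, CCN1 and CCN2 are also 3 of the 5 fibroblast and feeder genes that were lower in M1, while COL1A1, collagen of fibroblasts, had 163 and 1322 in M1 and 163 and 516 in M2, with the later passage higher in each code. The median of the 26 fibroblast and feeder genes was 0.25 with all arrays and -0.22 without M1 at passage 11.

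**Figure D4:**
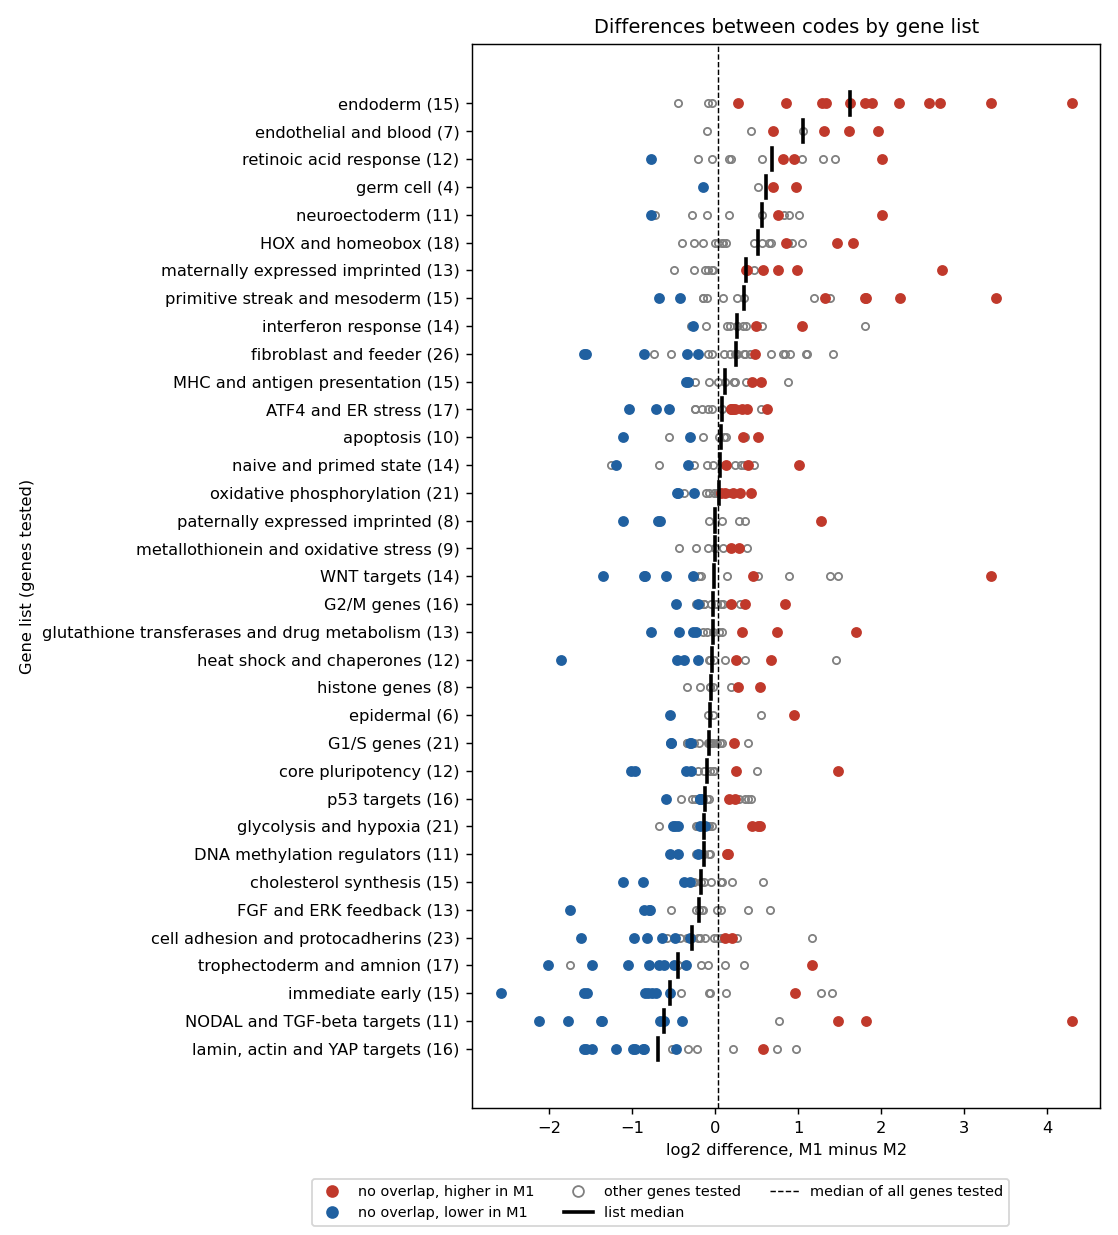
Log2 difference of M1 minus M2 for each tested gene of the 35 lists (rows, ordered by median, the number tested in brackets; filled points, genes without overlap; bars, list medians; dashed line, the median of all genes, 0.035). The endoderm list has the highest median, 1.63, and the actin and YAP list the lowest, -0.69.

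Of 12 core pluripotency genes tested, 3 had a positive and 9 a negative difference. POU5F1 had signals of 33612 and 30209 in M1 and 26436 and 27126 in M2, a difference of 0.25 ± 0.15 that turned to -0.14 with arrays centred on their medians. NANOG overlapped, at 1385 and 2342 in M1 and 1107 and 1451 in M2. SOX2 had 14280 and 11468 in M1 and 17023 and 15719 in M2. Without overlap 2 (16.7%) were higher in M1 and 4 (33.3%) lower, beside 22.3% and 17.9% of all genes. The median was -0.09 (0.11 without M1 at passage 11). FOXD3, a factor of the primed state and neural crest, had 1508 and 1121 in M1 and 2849.9 and 2400.5 in M2. EPCAM, the epithelial adhesion molecule, had 4220 and 3628 in M1 and 8244 and 7031 in M2, a difference of -0.96 ± 0.18. SOX11, a neural factor also high in primed stem cells, had 2219 and 2177 in M1 against 4680 and 5409 in M2.

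Adhesion genes included a protocadherin that set the haploid MPH1 arrays apart. Of the 34 listed, 23 were tested, with a median of -0.28. Without overlap 2 (8.70%) were higher in M1 and 6 (26.1%) lower, beside 22.3% and 17.9% of all genes. PCDH8, a protocadherin of the streak and paraxial mesoderm, had signals of 6037 and 3687 in M1 and 12724 and 16529 in M2, a difference of -1.62 ± 0.26 (limma adjusted p 0.309). It read 2270 in MPH2 and 145 to 248 in the ICSI lines, so all 4 MPH1 arrays were above every other stem cell array. PCDH18 had 2310 and 1638 in M1 and 3676 and 3992 in M2.

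Imprinted genes are of interest in cells with maternal chromosomes alone. Of 13 maternally expressed genes tested, 6 (46.2%) were higher in M1 without overlap and none lower, beside 22.3% and 17.9% of all genes. The median was 0.37, or 0.21 without M1 at passage 11, with 7 higher and 1 lower, beside 41.6% and 30.3% of all genes. With arrays centred it was -0.01, with 2 higher and 4 lower, beside the 6.11% and 33.7% of all genes. ATP10A, 1 of the 6, passed the filter only through M1, and the 6 included the dim gene PPP1R9A. GRB10, a growth inhibitor, had signals of 3290 and 4160 in M1 and 2764 and 2918 in M2. Of 8 genes listed as paternally expressed and tested, 1 was higher in M1 and 3 were lower. The higher one, INPP5F, passed the filter only through M1, and PON2, 1 of the lower ones, is known in mouse for expression from the maternal copy. MEST, which is silent on maternal chromosomes in many tissues, had 3447 and 2392 in M1 and 4770 and 4483 in M2. PON2, a paraoxonase, had 4031 and 4060 in M1 and 6022 and 6771 in M2. DLK1, a Notch-like protein, had 302 and 154 in M1 and 367 and 592 in M2.

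Of 7 endothelial and blood genes tested, 4 (57.1%) were higher in M1 without overlap, beside 22.3% of all genes. GATA1, 1 of the 4, passed the filter only through M1. Another was PECAM1, the endothelial adhesion molecule, with signals of 342 and 212 in M1 against 65.7 and 118 in M2. None of the 7 read above 568 on any of the 4 arrays, and the summed signal of the 12 named was 1580 and 2283 in M1 and 954 and 1035 in M2. CRABP1, a retinoic acid binding protein, had 1803 and 5124 in M1 and 768 and 741 in M2, while CYP26A1, which degrades retinoic acid, had 659 and 658 in M1 and 867 and 1468 in M2. Of 15 cholesterol synthesis genes 4 (26.7%) were lower in M1 and none higher, beside 17.9% and 22.3% of all genes. INSIG1, the sterol sensor's partner, was at 360 and 574 in M1 and 1030 and 941 in M2. Of 17 ATF4 and endoplasmic reticulum stress genes 7 (41.2%) were higher and 3 (17.6%) lower, with a median of 0.08. SLC7A5, 1 of the lower ones, passed the filter only through M2. Centring lowers every difference by the same amount. None of the 17 was then higher and 5 were lower, beside 6.11% and 33.7% of all genes. Medians lay between -0.13 and 0.08 for the lists of oxidative phosphorylation, apoptosis, p53 targets, glycolysis and hypoxia, heat shock, G1/S and G2/M genes, histones and DNA methylation regulators. By chromosome of the assembly T2T-MFA8v1.1, which placed 9382 of the genes tested, medians ran from -0.07 on chromosome 17 to 0.14 on chromosome 19, with 0.05 on the X chromosome.

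Across all genes of the rule, MPH2 lay with M2 more often than with M1, and the ICSI lines were not on a single side. MPH2 lay with M2 for 1328 of the 2305 genes higher in M1 and with M1 for 580. For the 1849 genes lower in M1, it lay with M2 for 906 and with M1 for 640. All 3 ICSI lines lay with M1 for 329 and with M2 for 348 of the genes higher in M1, and with M1 for 433 and with M2 for 257 of those lower in M1. MPH2 also correlated more with the M2 arrays, at 0.932 and 0.930, than with the M1 arrays, at 0.908 and 0.876, and its spike-in signal, 3862, and actin ratio, 2.92, were below those of all 4 MPH1 arrays and nearest to M2. The part of those technical values in this order was not tested.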

How the data were processed

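RNA had been labelled with a GeneChip 3′ IVT kit and hybridised to Affymetrix Rhesus Macaque arrays, per the labels' protocols. The deposited values are linear signal intensity, made by the authors with MAS5, per the submitters' processing notes. The MAS5 release is unknown. Each array's mean without its outer 2% of probe sets was 500, so arrays share a common mean. There were no detection calls. Having 4 arrays limits the precision.

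Of 52865 probe sets, 841 controls and viral probe sets were left out, and 27533 above the array median on at least 2 of the 4 arrays were tested, M1 against M2, on the log2 scale with a variance trend and two-sided tests (limma 3.58.1, R 4.3.3). P-values were adjusted by Benjamini-Hochberg over all of them. The fit had 2 residual and 5.50 prior degrees of freedom. A gene was its probe set of highest mean among those with that symbol alone (24956 probe sets had 1 symbol, 361 several and 26707 none). Where both arrays of the lower code lay at or under the array median, folds were computed with signals raised to it and are lower bounds. Genes named are the 14 with the largest gap in each direction, up to 4 of each list by gap, genes called and fixed markers. Further list members and the genes next in p were named after their values were seen. The comparison and the 35 lists were chosen with earlier results of these data known. Tested on simulated data of 27533 probe sets with 50 changed at each size, limma recovered 2% of 2-fold, 48% of 4-fold, 60% of 8-fold and 72% of 16-fold changes, with 6 false calls. Alternatives were all 10 arrays, passage as a covariate, quantile normalization, centring on array medians, an offset of 32, other filters, other variance settings, dim signals raised to the median, the mean of a gene's probe sets and leaving out each array. The list counts and medians without M1 at passage 11, centred or unfiltered were alternatives chosen after seeing the data. Plots were made in Python 3.11.15 (matplotlib 3.10.9). No sequence was printed.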

Additional observations from a re-analysis of the deposited data

How the results depend on the processing

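No paired analysis was possible because the codes share no replicate or passage number in the labels. The single probe set called became 0 with all 10 arrays in the fit, with quantile normalization and without a variance trend, 3 with no filter, with robust variance and with dim signals raised, 142 (37 higher in M1, 105 lower) with passage as a covariate, where 1 residual degree of freedom was left, and 212 (46 higher, 166 lower) with arrays centred on their medians, which put the median of all probe sets at -0.35, against 0.04. It ran from 4 (without M1 at passage 11) to 45 (without M2 at passage 9) when an array was left out, with 11 without M1 at passage 8 and 38 without M2 at passage 7; the lone array of a code was then assumed to vary like the other pair. Of the 4154 genes without overlap, 2305 (55.5%) were higher in M1 and 1849 lower. Centring on medians gave 630 higher (15.4%) and 3474 lower, and the stricter 75th percentile filter, with fewer genes, 2700 in all with 1283 higher. A gap of at least 1 left 59, of them 36 higher and 23 lower. With an array left out there were 6156 to 8297 genes, with 3321 to 4361 higher and 2835 to 3936 lower, since 3 arrays overlap less often. The 28 genes with the largest gaps gave 412 values under the alternatives, of which 0 reversed direction. These genes were picked for their gaps on the same arrays, so the kept direction is no separate support. Since centring on medians lowers every difference by the same amount, it turns those with a small positive difference. Among the other named genes, it turned POU5F1 to -0.14, BBC3 to -0.15, HSP90AB1 to -0.13, SOD2 to -0.094, GCLM to -0.19, CCND3 to -0.15, MKI67 to -0.027, CBR1 to -0.059, TRIM28 to -0.23, TET3 to -0.24, NDUFS1 to -0.18, BAK1 to -0.048, H2AZ1 to -0.11 and SNRPN to -0.10. Quantile normalization turned H2AZ1 to -0.17, the mean of probe sets ZMAT3 to 0.34 and TAPBP to -0.21, and the passage covariate DNMT3B to 0.15, SNRPN to -0.57 and COL1A1 to -0.75. The covariate put H19 at 1.59 (limma adjusted p 0.009, range over the alternatives 0.0091 to 0.9999), which then passed the threshold. With an array left out, DNMT3B ran from -0.27 to 0.16 (-0.06 with all 4), SNRPN from -0.75 to 1.33 (0.29), H19 from -0.53 to 1.46 (0.46) and COL1A1 from -0.83 to 2.19 (0.68). The cause was not tested.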

Other observations

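Homeobox genes of the body axis had a positive median difference. Of 18 genes of the HOX and homeobox list tested, 3 (16.7%) were higher in M1 without overlap and none lower, with a median of 0.51. Over all genes the shares were 22.3% higher and 17.9% lower, so the higher count was under that share. Without M1 at passage 11 the counts were 4 higher and 4 lower, beside 41.6% and 30.3% of all genes, and the median 0.09. With arrays centred 3 were higher and 4 lower, beside 6.11% and 33.7% of all genes. IRX5 had signals of 183 and 669 in M1 and 137 and 90.0 in M2, and HOXA5 had 190 and 515 in M1 and 117 and 109 in M2. In both genes M1 at passage 11 was far above the other 3 arrays. Of 11 neuroectoderm genes tested 2 were higher in M1 and 1 lower. The lower one was SOX3, a neural factor on the X chromosome, at 1285 and 835 in M1 and 1722 and 1826 in M2.

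Inhibitors and targets of WNT signalling had no common direction, with 2 of 14 higher in M1, 5 lower and a median of -0.01. SFRP1, a secreted WNT inhibitor, had signals of 13880 and 8349 in M1 and 15616 and 16940 in M2, while NOTUM, an enzyme that inactivates WNT, had 186 and 179 in M1 and 138 and 129 in M2. Of 14 interferon response genes 2 were higher and 1 lower, and of 15 genes of antigen presentation 2 were higher and 2 lower. Of 13 glutathione transferase and drug metabolism genes 3 were higher and 4 lower. Over all genes the shares were 22.3% higher and 17.9% lower.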
